A study of Mus musculus with 12 samples.

Results

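The vehicle comparison of a study on hypochlorous acid (HOCl) was examined: cells exposed to HBSS alone were compared with cells exposed to cell media, over all genes with at least 1 FPKM (fragments scaled to exon length and to library depth) in at least 3 of these 6 libraries. That rule kept 11551 of the 28977 gene IDs in the deposited table. All cells were J774A.1, an established mouse line of macrophage-like tumour cells grown in DMEM with 10% fetal bovine serum. The 12 libraries form 4 groups of 3: cells in cell media, cells in HBSS without HOCl, and cells in HBSS with 20 µM or 100 µM HOCl. Cells stayed in their group's fluid for 1 h and then spent 24 h in full medium in every group, so the cell media and HBSS groups differed in the fluid on the cells during that hour. HOCl was given in HBSS, and the 6 HOCl libraries therefore share the vehicle; they served here for the estimate of spread and are given beside some values. All results concern 1 cell line. The labels do not say whether the 3 libraries of a group came from separate cultures, and the p-values here reflect only how far these libraries spread, which may be technical.

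HBSS (Hanks' balanced salt solution) carries salts, buffer and glucose but no serum and no amino acids. Lack of amino acids, or of proper folding in the endoplasmic reticulum, activates kinases that phosphorylate the translation factor eIF2, after which the transcription factor ATF4 and its target CHOP (gene Ddit3) induce genes for amino acid supply and for cell stress. The unfolded protein response also induces chaperones of the endoplasmic reticulum. Interferon-stimulated genes are transcribed when factors activated by the interferon receptor bind an interferon-stimulated response element, and macrophages are known for keeping this system active at a low level. RNA was taken 24 h after the cells had returned to full medium, so the levels are those of cells that had been back in serum and amino acids for that time.

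The depth recovered from the FPKM steps lay between 17683626 and 21408382 reads a library over the 12 libraries. Macrophage markers were abundant in all 6 libraries: Lyz2, a lysozyme, stood between 2020 and 2420 FPKM, Cd68 between 771 and 906 and Csf1r, the receptor for macrophage colony-stimulating factor, between 41.4 and 82.6. Of the markers of 8 other cell types, none passed the filter on low values for fibroblasts, epithelium, endothelium and dendritic cells, and 1 passed in each other list (Lck of T cells, Ighm of B cells, S100a8 of neutrophils and Pf4 of megakaryocytes). Pf4, also made by macrophages, stood at 318, 356 and 153 FPKM in cell media and at 154, 174 and 158 in HBSS; the part of such markers in the results was not tested. In these bulk libraries, fewer cells of a type and less RNA per cell cannot be told apart.

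Cell media replicates 1 and 2 stood apart from replicate 3, and replicate 3 lay about as near to HBSS as the HBSS libraries lay to each other. The median absolute log2 difference from the HBSS mean, over 11551 genes on the log2(FPKM + 1) scale used throughout, was 0.379 for cell media replicate 1, 0.393 for replicate 2 and 0.1 for replicate 3. Each HBSS library, set against the mean of the other 2, gave 0.103, 0.073 and 0.074. A difference of at least 1 from the HBSS mean was found for 848 genes in cell media replicate 1, for 793 in replicate 2 and for 24 in replicate 3. As a description across genes, which are not independent replicates, the correlation of replicate 3 with the HBSS libraries lay between 0.9896 and 0.9932, that of replicates 1 and 2 with HBSS between 0.9449 and 0.9577, and that of replicates 1 and 2 with each other was 0.9881. The labels name NovaSeq 6000 and MGISEQ-T7 instruments but tie neither to a library, so an instrument batch cannot be told apart from these library differences. List medians, and the values of most named genes, are therefore given below for each cell media library.

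**Figure D1:**
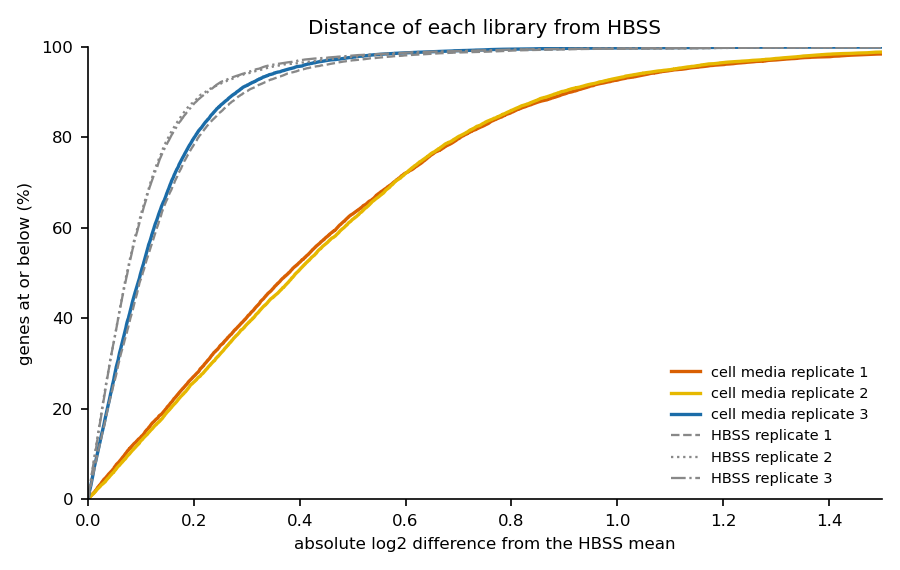
Cumulative share of genes (percent) by absolute log2 difference from HBSS, for each cell media library against the mean of the 3 HBSS libraries and for each HBSS library against the mean of the other 2. Cell media replicate 3 (median 0.1) follows the HBSS libraries (medians 0.073 to 0.103), while cell media replicates 1 and 2 (medians 0.379 and 0.393) lie far to the right.

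With the 3 cell media libraries as 1 group, no gene passed the test. Limma on the 6 libraries called 0 of 11551 genes at a Benjamini-Hochberg adjusted p under 0.05 (0.0%), the smallest adjusted p was 0.273, and 1968 genes had an unadjusted p under 0.05. Limma-voom on reads recovered from the FPKM steps also called 0, with 2151 at an unadjusted p under 0.05. A limma fit with all 12 libraries called 2 genes (0.0173%): Ddit3, lower in HBSS (adjusted p = 0.0265), and Ifi44, an interferon-stimulated gene, higher in HBSS (adjusted p = 0.0462). Its spread was pooled over all 4 groups, although the cell media libraries spread more than the others. The median standard error was 0.13, against 0.163 over 6 libraries, so the p-values of this fit may be too small. Without cell media replicate 3 the 6-library design called 7046 genes, and without any other single library it called 0. The libraries of the 2 groups did not overlap for 1482 genes that were higher in HBSS (12.8%) and 1052 that were lower (9.11%). With 3 libraries against 3, an exact permutation test of 1 gene cannot go below 0.1.

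Against single cell media libraries the counts differed widely. In a limma fit on all 12 libraries in which each cell media library had a mean of its own, 6965 genes differed between HBSS and cell media replicate 1 (60.3%), 4706 higher (40.7%) and 2259 lower (19.6%) in HBSS. Against replicate 2 the fit called 7170 genes (62.1%), 4443 higher (38.5%) and 2727 lower (23.6%). Against replicate 3 it called 0 (0.0%), with 818 at an unadjusted p under 0.05 (3.6% of all genes higher and 3.48% lower), and a smallest adjusted p of 0.217. Such a call concerns that library and not the condition, since a lone library is assumed to vary like the HBSS and HOCl groups. The 3 comparisons share the HBSS libraries. The count of genes called in 1 direction against all 3 cell media libraries was thus 0 (0.0%), and 5746 genes (49.7%) were called in 1 direction against replicates 1 and 2 but not against replicate 3. The 95% interval of the difference from replicate 3 lay within 1 log2 unit on either side of 0 for 10956 genes (94.8%), with a median half-width of 0.229.

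The difference among the cell media libraries themselves was tested in the same fit. Replicates 1 and 3 differed in 6073 genes (52.6%), 1849 higher and 4224 lower in replicate 1. Between replicates 2 and 3, 6430 genes differed (55.7%), 2394 higher and 4036 lower in replicate 2. Replicates 1 and 2 differed in 154 (1.33%). Genes called against replicates 1 and 2 alone included short nucleolar and micro RNAs that were low in these libraries: Snord110, a small nucleolar RNA, stood at 0, 0.832 and 7.23 FPKM in cell media replicates 1, 2 and 3 and at 13.1, 8.14 and 8.87 in HBSS. Gm26109, also annotated as a small nucleolar RNA, stood at 3.94, 4.04 and 28.8 against 35.4, 25.1 and 25.8. The micro RNA gene Mir1957a and the small nucleolar RNAs Snord73a and Gm22200 were likewise below 1 FPKM in replicates 1 and 2 and above 3 FPKM in replicate 3 and in HBSS. Exon length lay between 66 and 70 bases in these short RNAs, so their FPKM values rest on few reads. Messenger RNA was sequenced, and whether these reads come from the short RNAs or from longer transcripts over them was not tested. In the other direction, Gm10073 stood at 162, 164 and 48.3 FPKM in cell media and at 39.7, 44.4 and 39.4 in HBSS, and the processed pseudogene Gm11942 at 39.8, 42.0 and 9.55 against 11.2, 11.5 and 7.86; pseudogenes may share reads with near-identical copies. An ID without a symbol, ENSMUSG00000119584, stood at 16232 FPKM in cell media replicate 1, 1541 in replicate 2, 563 in replicate 3 and 377 to 405 in HBSS, and is 1 of 3 unnamed IDs among the 5 genes that headed this direction. In each of these genes cell media replicate 3 was nearer to the HBSS libraries than to replicates 1 and 2, or lay beyond HBSS.

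The differences from replicates 1 and 2 went with exon length, and those from replicate 3 did not. In 8 classes of equal size by total exon length, the median log2 difference of HBSS from cell media replicate 1 ran from -0.133 in the shortest class (45 to 1030 bases) to 0.467 in the longest (8568 to 41324 bases), with its lowest value, -0.195, in the second class. For replicate 2 the corresponding values were -0.285 and 0.519, with -0.353 in the second class. For replicate 3 all 8 medians lay between -0.059 and 0.015. With the trend on exon length removed, the count against replicate 1 was 5955 genes (2896 higher, 3059 lower) and that against replicate 2 was 5905 (2952 higher, 2953 lower). The part of exon length in single genes was not tested.

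**Figure D2:**
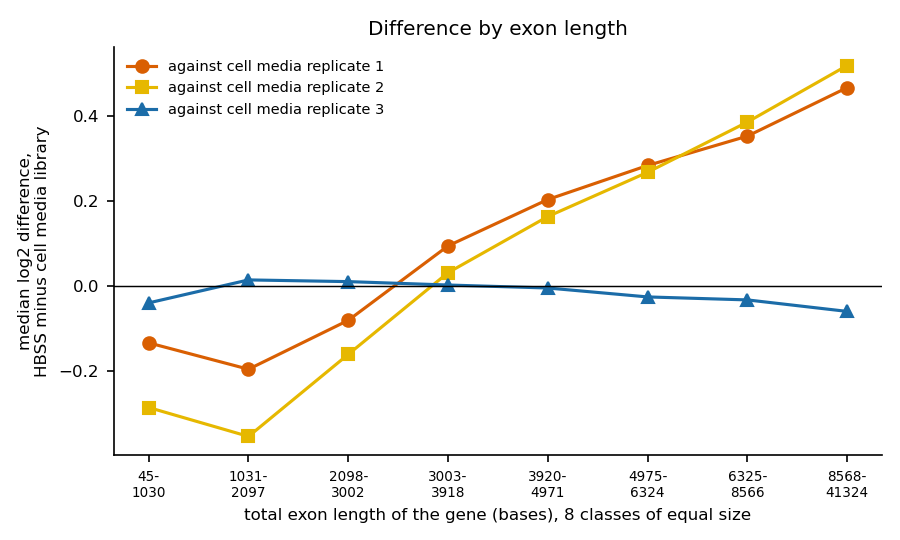
Median log2 difference (HBSS mean minus 1 cell media library, log2(FPKM + 1)) in 8 classes of genes by total exon length in bases. Against replicates 1 and 2 the medians run from -0.133 and -0.285 in the shortest class to 0.467 and 0.519 in the longest, while against replicate 3 they stay between -0.059 and 0.015.

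Promoter sequences are shown for 3 lists whose median kept 1 direction against all 3 cell media libraries. Each list holds genes picked for a pathway, so a share of its motif above that over all genes was built in. Such a share says nothing about HBSS against cell media. RefSeq promoters (build GRCm38.p6, 250 bases before to 50 after the start, both strands) were searched for the core of the interferon-stimulated response element, GAAA and GAAA with any 2 bases between them. It was present for 17 of the 29 listed interferon-stimulated genes with a promoter in the table (58.6%) and for 3.99% of all 27025 genes with a promoter. Among the listed genes that passed the filter on low values it was present for 13 of 25. The following stretches upstream of the start hold it, with the match in capitals (a match on the other strand reads as its reverse complement, and overlapping matches run together), Trim30a at chr7:104465195-104465254 on the minus strand, Rsad2 at chr12:26456538-26456597 on the minus strand, Oas3 at chr5:120777700-120777759 on the minus strand, Isg15 at chr4:156200856-156200915 on the minus strand.
Trim30a: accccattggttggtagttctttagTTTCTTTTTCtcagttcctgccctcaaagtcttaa
Rsad2: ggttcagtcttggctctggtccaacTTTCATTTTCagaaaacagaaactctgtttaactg
Oas3: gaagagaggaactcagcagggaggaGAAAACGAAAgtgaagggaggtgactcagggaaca
Isg15: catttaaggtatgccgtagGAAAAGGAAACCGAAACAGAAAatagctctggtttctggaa

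The stretches here and below were taken only from measured members with the motif whose groups did not overlap. In the interferon list no such member had HBSS below. That these 4 genes were higher in HBSS than in each cell media library thus follows from the choice. Their differences from replicate 3 were 0.63 (Trim30a), 0.23 (Rsad2), 0.23 (Oas3) and 0.18 (Isg15). All of them but Trim30a, and Pck2, Atf3 and Canx below, were chosen after their values were seen.

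The core that ATF4 and C/EBP proteins bind together, TGATGNAA, was found for 10 of 29 listed ATF4 and CHOP targets with a promoter (34.5%) and for 4.51% of all genes with a promoter. Among the listed genes that passed the filter on low values it was found for 8 of 24. Examples are Nupr1 at chr7:126625547-126625606 on the minus strand, Pck2 at chr14:55540137-55540196 on the plus strand, Atf3 at chr1:191183410-191183469 on the minus strand.
Nupr1: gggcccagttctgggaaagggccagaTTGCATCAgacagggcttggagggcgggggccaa
Pck2: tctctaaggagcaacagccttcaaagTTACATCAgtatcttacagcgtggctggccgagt
Atf3: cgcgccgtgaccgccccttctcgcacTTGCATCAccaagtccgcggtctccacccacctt

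The endoplasmic reticulum stress element is CCAAT and CCACG with any 9 bases between them. It was found for 8 of 20 listed chaperones and unfolded protein response genes with a promoter (40.0%) and for 0.137% of all genes with a promoter. Examples are Hspa5 at chr2:34772004-34772063 on the plus strand, Hsp90b1 at chr10:86705618-86705677 on the minus strand, Canx at chr11:50325780-50325839 on the minus strand. A match describes letters in this window and is not a binding site by itself.
Hspa5: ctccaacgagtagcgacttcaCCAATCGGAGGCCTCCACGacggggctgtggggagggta
Hsp90b1: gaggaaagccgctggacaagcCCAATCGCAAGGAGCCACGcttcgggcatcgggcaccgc
Canx: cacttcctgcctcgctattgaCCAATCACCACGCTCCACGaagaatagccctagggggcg

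Most interferon-stimulated genes were higher in HBSS than in each cell media library. None passed the test over 6 libraries, and Ifi44 alone of them passed with 1 mean per group over 12 libraries. Of 40 listed genes, 33 passed the filter on low values, and 31 of these were higher in HBSS than in the cell media mean. The 2 groups did not overlap for 27, all with HBSS above (12.8% of all genes), and none had HBSS below. The median log2 difference over the 33 was 0.72 against cell media replicate 1, 0.71 against replicate 2 and 0.34 against replicate 3, where the medians of all genes were 0.178, 0.141 and -0.0155. With genes averaging 5 FPKM only, which left 17 of the 33, the medians of the list were 0.433, 0.424 and 0.308. Against replicate 3, 33 of 33 were higher (5240 of all 11551 genes were), by 0.03 to 0.81, and 25 had an unadjusted p under 0.05 (3.6% of all genes), though none passed the adjusted threshold. Replicate 3 lay below all 3 HBSS libraries for 31 of them (25.6% of all genes). Against replicate 1, 28 were called higher (40.7% of all genes), and against replicate 2, 24 were called higher (38.5%), while 26 had an unadjusted p under 0.05 there (41.0%). Cell media replicates 1 and 2 were themselves each called lower than replicate 3 for 13 of the 33 members, near the shares over all genes (36.6% and 34.9%). Gbp3 and Rtp4 passed the filter through HBSS libraries alone and had to be higher. Of the other 31, 29 were higher than the cell media mean, 31 were higher than replicate 3 and 25 had groups that did not overlap.

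Irf7, the transcription factor that amplifies interferon production, stood at 4.45, 4.69 and 4.62 FPKM in cell media replicates 1, 2 and 3 and at 7.46, 8.50 and 7.57 in HBSS. The groups did not overlap, and the 3 cell media values lay close together. Its means were 4.59 ± 0.12 and 7.84 ± 0.57 (SD, n = 3 each), the log2 difference was 0.66 (SE 0.11), and it was 0.70, 0.63 and 0.65 against the 3 cell media libraries in turn. Usp18, a protease that removes ISG15 and dampens interferon receptor signalling, stood at 3.08, 5.09 and 5.32 in cell media and at 8.86, 9.48 and 8.70 in HBSS. Cell media replicate 1 was the lowest, and the difference from replicate 3 was 0.66 (95% interval 0.39 to 0.93). Trim30a, a restraint on inflammatory signalling, stood at 6.02, 8.14 and 13.4 against 18.3, 22.9 and 22.8. Here cell media replicate 3 lay between the other libraries and HBSS, so that a log2 difference of 1.66 from replicate 1 became 0.63 from replicate 3. Eif2ak2, the RNA-sensing kinase PKR, showed the same order, with 10.96, 12.2 and 21.3 in cell media and 26.2, 29.99 and 30.1 in HBSS. None of the 4 passed the test over 6 libraries (adjusted p = 0.273 for each, limma).

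The other members are named to account for the list and were chosen after their values were seen. Ifi44 stood at 1.22, 1.37 and 2.55 FPKM in cell media and at 4.86, 5.00 and 5.13 in HBSS, and had the smallest p of all genes against replicate 3 (difference 0.76, 95% interval 0.55 to 0.96, adjusted p = 0.217 by limma). Oas2, which makes the 2-5A messenger that activates RNase L, stood at 1.251, 1.296 and 3.03 against 4.84, 5.35 and 5.599. At the low end, the RNA sensor Ifih1 (difference 0.03 from replicate 3) and Herc6, a ligase for ISG15 (0.07), were nearly level with replicate 3 while higher than replicates 1 and 2. Bst2, the virus-tethering protein tetherin, ran the other way against replicates 1 and 2: it stood at 241, 244 and 145 in cell media and at 168, 187 and 175 in HBSS. Ifi27l2a likewise stood at 152, 154 and 62.7 against 87.0, 99.4 and 86.4. Against replicate 3 both were higher in HBSS, by 0.28 and 0.53.

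Of the interferon-stimulated genes, 18 were also higher in all 9 libraries kept in HBSS, with or without HOCl, than in all 3 cell media libraries (7.52% of all genes), a count added after the data were seen. Acod1, which makes itaconate in activated macrophages and was not on the list, was among the 4 higher genes with the smallest p and a mean of at least 5 FPKM: it stood at 7.14, 8.11 and 8.96 FPKM in cell media and at 13.0, 16.0 and 16.1 in HBSS. The log2 difference was 0.82 (SE 0.14), and the 6 HOCl libraries lay between 13.4 and 18.1. The processed pseudogene Gm12960 completed these 4, with 17.1, 19.2 and 23.4 against 34.2, 30.7 and 36.6.

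**Figure D3:**
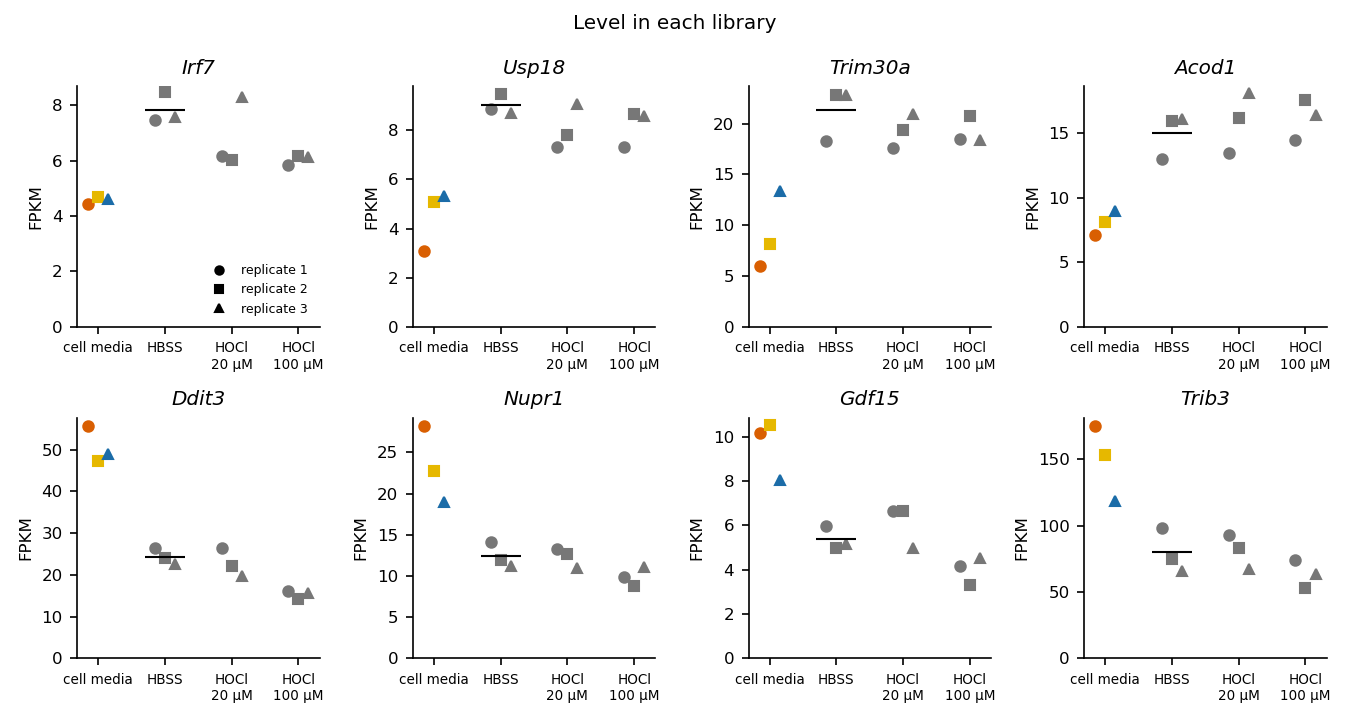
FPKM of 8 genes in all 12 libraries, by group (cell media in colour, libraries kept in HBSS in grey, replicates by symbol, black line at the HBSS mean). For Irf7, Usp18, Trim30a and Acod1 the 3 HBSS libraries lie above all 3 cell media libraries, and for Ddit3, Nupr1, Gdf15 and Trib3 below them.

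Most ATF4 and CHOP targets were lower in HBSS than in each cell media library. None passed the test over 6 libraries, and Ddit3 alone of them passed with 1 mean per group over 12 libraries. Of 34 listed genes, 27 were measured, and 23 were lower in HBSS than in the cell media mean. The groups did not overlap for 14, all with HBSS below (9.11% of all genes), and for none with HBSS above. The median log2 difference was -0.47 against cell media replicate 1, -0.41 against replicate 2 and -0.24 against replicate 3, and -0.236 and -0.204 against replicates 1 and 2 with quantiles made equal. Against replicate 3, 27 of 27 were lower, by 0.02 to 0.98, and 10 had an unadjusted p under 0.05 (3.48% of all genes), with none past the adjusted threshold. That count rose without HBSS replicate 1 and fell without HBSS replicate 2, as the count over all genes did. All 27 were lower in both cases. Replicate 3 lay above all 3 HBSS libraries for 25 of them (33.7% of all genes). Against replicates 1 and 2, 20 and 21 of the 27 were lower (4273 and 4626 of all 11551 genes). The others, 7 and 6, were higher (7278 and 6925 of all genes). The 14 members without overlap were also lower in all 9 libraries kept in HBSS than in all 3 cell media libraries (4.03% of all genes).

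Ddit3, which encodes CHOP, stood at 55.7, 47.3 and 49.0 FPKM in cell media and at 26.5, 24.0 and 22.6 in HBSS. Every HBSS library was lower than every cell media library, and the 6 HOCl libraries lay between 14.2 and 26.6. Its means were 50.7 ± 4.4 and 24.4 ± 2.0 (SD, n = 3 each), and the log2 difference was -1.02 (SE 0.12). Against the 3 cell media libraries in turn it was -1.16, -0.93 and -0.98, the last with a 95% interval of -1.31 to -0.64. It had the smallest p of all genes over 6 libraries, and its adjusted p was 0.273 (limma). Nupr1, a stress-induced chromatin protein, stood at 28.3, 22.7 and 19.0 in cell media and at 14.2, 11.9 and 11.2 in HBSS. Gdf15, a secreted stress cytokine, stood at 10.1, 10.5 and 8.05 against 5.95, 5.00 and 5.15. Trib3, a pseudokinase induced by CHOP, stood at 175, 153 and 119 against 98.5, 74.7 and 66.1. In all 3 of these genes cell media replicate 3 was the lowest of its group and still above the highest HBSS library, and the differences from it were -0.58, -0.51 and -0.59. Bbc3, which encodes the cell death inducer PUMA and was not on the list, had the same order, with 25.7, 20.6 and 15.1 against 10.6, 9.64 and 9.82, and was among the 4 lower genes with the smallest p that have a mean of at least 5 FPKM.

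Other members varied more within a group. Atf4 itself stood at 323, 356 and 277 FPKM in cell media and at 266, 214 and 224 in HBSS, a difference of -0.24 from replicate 3 with a 95% interval of -0.53 to 0.04. Asns, which makes asparagine, stood at 143, 115 and 137 against 130, 102 and 93.3, and Chac1, which degrades glutathione, at 20.4, 26.7 and 16.0 against 9.84, 14.1 and 16.2, so that both groups overlapped. Ppp1r15a, the phosphatase subunit GADD34, was high in HBSS replicate 1 (44.8) and low in replicates 2 and 3 (20.9 and 21.8), against 49.5, 38.4 and 50.1 in cell media. The members for amino acid uptake did not share the direction against replicates 1 and 2. Slc7a11, the cystine transporter, stood at 4.05, 4.001 and 8.43 in cell media and at 7.15, 7.25 and 7.65 in HBSS, and Slc38a2, a transporter of neutral amino acids, at 45.3, 45.2 and 75.2 against 65.9, 61.3 and 65.8. Both were higher in HBSS than in replicates 1 and 2 and lower than in replicate 3. Ppp1r15a, Slc7a11 and Slc38a2 were chosen after their values were seen.

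Most chaperones of the endoplasmic reticulum had higher values in HBSS, and none passed the test over 6 libraries or against replicate 3. Of 23 listed genes of the unfolded protein response, all 23 were measured, 17 were higher than the cell media mean, and 10 had groups that did not overlap, all with HBSS above (12.8% of all genes). The median difference was 0.47, 0.29 and 0.20 against cell media replicates 1, 2 and 3, and 0.263 and 0.144 against replicates 1 and 2 after scaling by median of ratios. Against replicate 3, 8 had an unadjusted p under 0.05, all higher (3.6% of all genes). This count held some lower members without HBSS replicate 1. Like that over all genes, it rose there and fell without HBSS replicate 2 or 3. With 4 libraries in each fit it was 2 higher and 2 lower. Hspa5, the chaperone BiP, stood at 105, 134 and 196 FPKM in cell media and at 219, 262 and 258 in HBSS. Cell media replicate 3 was nearer to HBSS than to replicate 1, and the difference from it was 0.32 (95% interval 0.04 to 0.61). Hsp90b1, the chaperone GRP94, stood at 102, 137 and 222 against 241, 279 and 293, and Pdia3, a disulfide isomerase, at 138, 153 and 213 against 233, 286 and 287. Pdia4, a related isomerase, had 81.7, 94.6 and 116 against 127, 152 and 152. The 6 members below replicate 3 were Ern1, Sel1l, Atf6, Dnajb9, Edem1 and Syvn1, chosen after their values were seen; Sel1l, Edem1 and Syvn1 act in degradation of misfolded proteins. Ern1, the sensor IRE1, was at 9.30, 7.08 and 11.3 against 8.93, 6.47 and 6.34, and Atf6 at 32.8, 26.9 and 54.1 against 49.4, 41.4 and 41.6, with HBSS above replicates 1 and 2 and below replicate 3.

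**Figure D4:**
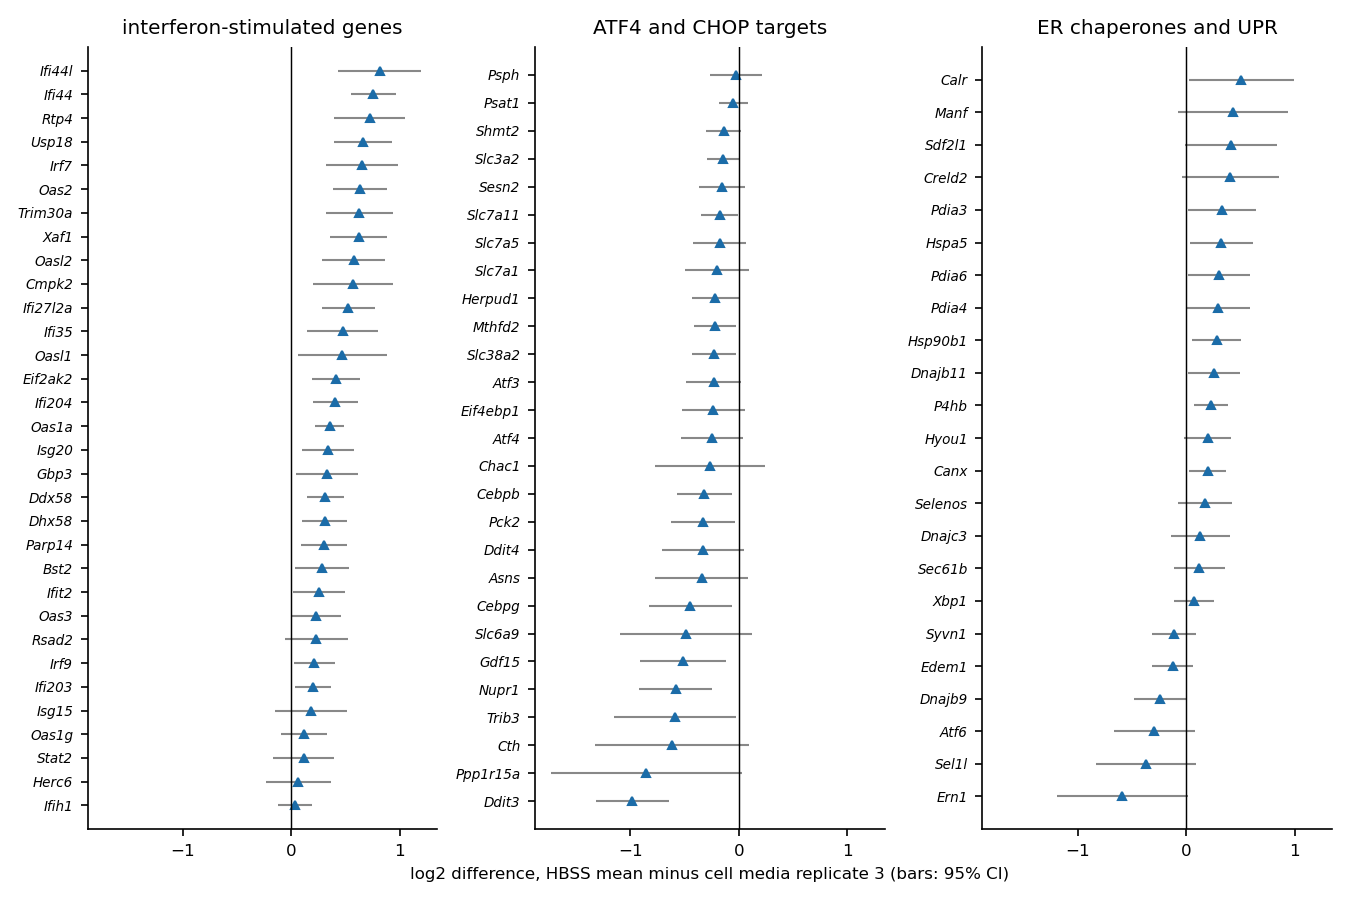
Log2 difference of each measured member between the mean of 3 HBSS libraries and cell media replicate 3, with 95% intervals from the 12-library fit, for 3 gene lists, without 1 member that is not reported here. The 32 interferon-stimulated genes drawn lie above 0 and all 27 ATF4 and CHOP targets below, while the 23 genes of the unfolded protein response divide into 17 above and 6 below.

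Cytosolic heat shock chaperones also had mostly higher values in HBSS, and none passed the test over 6 libraries or against replicate 3. Of 19 listed genes 15 were measured, and 7 had groups that did not overlap, all with HBSS above (12.8% of all genes). Their median difference was 0.45, 0.43 and 0.23 against cell media replicates 1, 2 and 3; with the trend on exon length or GC removed, that against replicate 1 was 0.00606 or 0.0155 and that against replicate 2 was 0.0913 or 0.0974. Hsph1, a nucleotide exchange factor for HSP70, stood at 7.65, 9.43 and 11.1 FPKM in cell media and at 13.8, 18.7 and 19.9 in HBSS. Hsp90aa1, the inducible cytosolic HSP90, stood at 120, 196 and 226 against 258, 309 and 318, and Dnaja1, an HSP70 co-chaperone, at 10.5, 15.5 and 16.0 against 18.2, 23.3 and 22.6. In each, HBSS replicate 1 was the lowest of its group and the nearest to cell media replicate 3. Hspa4, another member of the HSP70 system, stood at 44.2, 50.4 and 71.4 against 72.0, 85.4 and 85.4, with replicate 3 next to the lowest HBSS library.

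Genes for ribosome assembly and for DNA replication had slightly higher values in HBSS, and none passed the test over 6 libraries or against replicate 3. All 34 listed factors of ribosome biogenesis were measured, 16 had groups that did not overlap with HBSS above (12.8% of all genes) and 0 with HBSS below (9.11%), and 33 of 34 were higher than cell media replicate 3 (5240 of all 11551 genes). Their median difference was 0.40, 0.21 and 0.19 against replicates 1, 2 and 3, with 0.202 against replicate 1 after scaling by median of ratios and 0.0443 against replicate 2 with the exon length trend removed. Ncl, which encodes nucleolin, stood at 88.9, 91.0 and 130 FPKM in cell media and at 144, 174 and 180 in HBSS, and Wdr43, a factor of the small subunit processome, at 19.2, 25.0 and 32.3 against 35.1, 39.2 and 39.9. The helicases Ddx18 and Ddx21 also had groups that did not overlap, with differences of 0.22 and 0.17 from replicate 3.

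All 42 replication genes were measured, 12 had groups that did not overlap, all with HBSS above (12.8% of all genes), and 40 of 42 were higher than replicate 3. Their median was 0.50 against replicate 1 (0.313 after scaling by median of ratios) and 0.19 against replicate 3, but 0.06 against replicate 2, where it was -0.131 with the GC trend removed. Orc1, of the origin recognition complex, stood at 3.12, 3.95 and 5.37 against 6.27, 7.87 and 8.06. Mcm10, another replication factor, stood at 5.43, 6.77 and 9.497 against 10.4, 13.4 and 13.3. Mcm4, a subunit of the replicative helicase, stood at 23.7, 28.2 and 32.2 against 35.3, 44.6 and 47.9. The sliding clamp Pcna overlapped, with 178, 221 and 178 in cell media and 194, 228 and 228 in HBSS. Of 38 G2/M and mitosis genes, 9 had groups that did not overlap with HBSS above (12.8% of all genes) and 2 with HBSS below (9.11%). Their median difference was 0.45 and 0.46 against replicates 1 and 2 (0.132 and 0.197 with the GC trend removed) and 0.05 against replicate 3. Against replicate 3, 27 of 38 were higher and none had an unadjusted p under 0.05. Without HBSS replicate 1 some did, all higher, and the count over all genes also rose. Mki67, the proliferation marker Ki-67, stood at 37.6, 35.6 and 85.0 against 85.5, 91.9 and 102.

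Histone genes had mostly lower values in HBSS, and none passed the test over 6 libraries or against replicate 3. Of 24 listed, 12 were measured, and 6 had groups that did not overlap with HBSS below (9.11% of all genes), with 1 above (12.8%). Against replicate 3, 8 were lower and 4 higher. The median was -0.46, -0.44 and -0.22 against cell media replicates 1, 2 and 3, and -0.0617 against replicate 2 with quantiles made equal. Hist1h1c, a linker histone, stood at 45.6, 47.3 and 36.7 FPKM in cell media and at 32.5, 29.8 and 28.7 in HBSS. Hist1h2bc, a core histone, stood at 11.8, 10.7 and 7.06 against 5.94, 4.96 and 5.39. In both, every HBSS library was lower than every cell media library. Histone genes have near-identical copies, and reads may be split among them. Among 14 measured FOXO-responsive genes, 1 had non-overlapping groups above (12.8% of all genes) and 2 below (9.11%). Trib1 was the 1 above, with 3.78, 5.24 and 6.40 against 11.3, 7.57 and 7.96, a difference of 0.41 from replicate 3. Klf6 overlapped, with 31.3, 26.8 and 54.3 against 77.7, 47.6 and 49.0, and was higher in HBSS than in replicates 1 and 2. Txnip, which binds thioredoxin and limits glucose uptake, was 1 of those below, with 135, 106 and 142 against 92.9, 100 and 96.3. Gadd45a, a growth arrest gene, stood at 95.2, 63.9 and 82.0 against 65.5, 45.1 and 39.9, with groups that overlapped. The list's median was -0.07, 0.11 and -0.22 against the 3 libraries, so its sign differed between them; with the exon length trend removed the first was -0.383 and the second -0.0752.

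**Figure D5:**
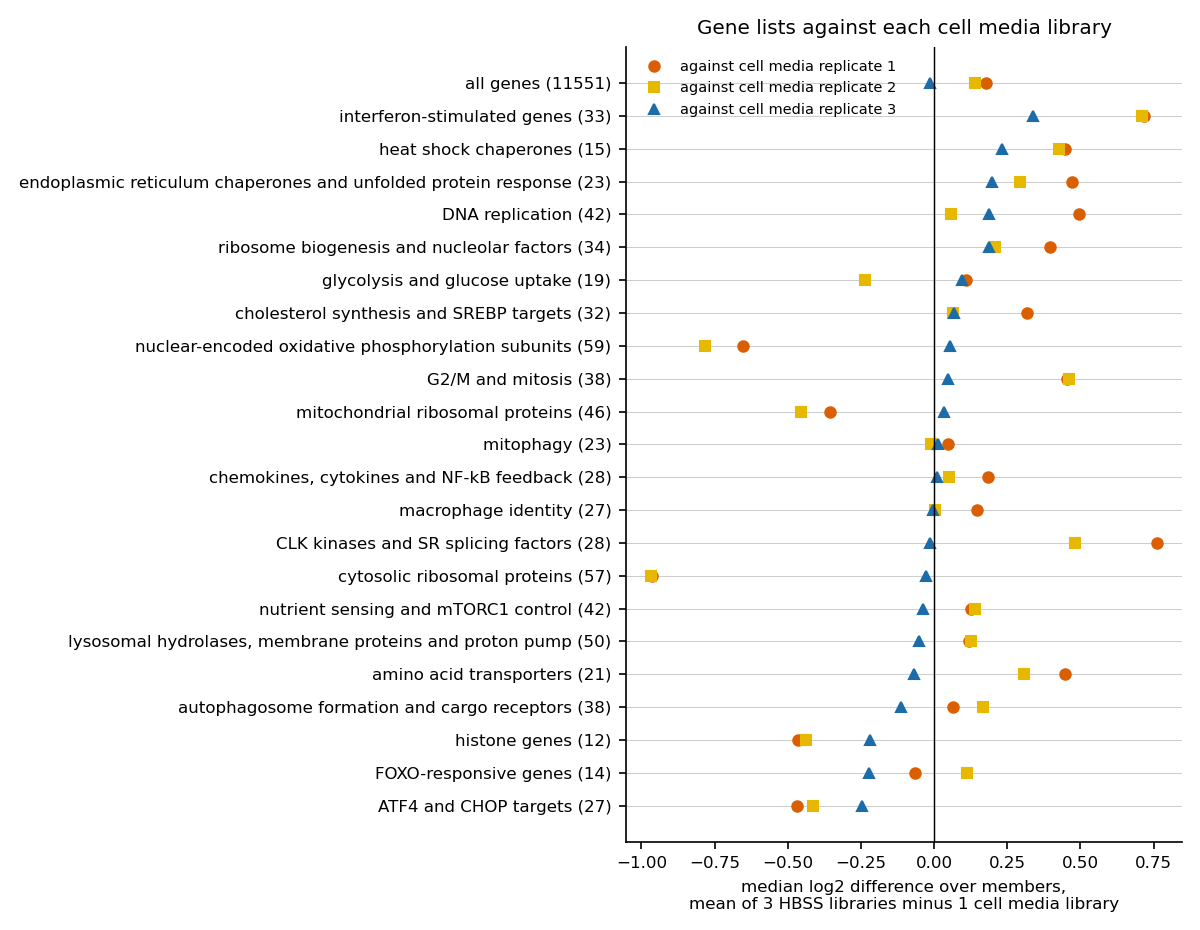
Median log2 difference over the measured members of 22 gene lists and over all genes (number of members in parentheses), for the mean of 3 HBSS libraries minus each cell media library. Interferon-stimulated genes lie right of 0 and ATF4 and CHOP targets left of 0 against all 3 libraries, while ribosomal protein, oxidative phosphorylation and splicing genes lie far from 0 against replicates 1 and 2 and near 0 against replicate 3.

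Other lists differed strongly from cell media replicates 1 and 2 and hardly from replicate 3. Cytosolic ribosomal proteins had a median of -0.96 and -0.97 against replicates 1 and 2 and -0.03 against replicate 3. With quantiles made equal the first pair was -0.369 and -0.381. Cell media replicate 1 itself was called higher than replicate 3 for 43 of the 57 measured (16.0% of all genes were called so), and replicate 2 for 46 (20.7%). Rpl27, of the large subunit, stood at 572, 542 and 263 FPKM in cell media and at 239, 244 and 248 in HBSS. Replicate 3 differed from replicates 1 and 2 about as HBSS did. Nuclear-encoded subunits of oxidative phosphorylation had medians of -0.65, -0.78 and 0.05 (-0.493 and -0.488 for the first pair with quantiles made equal), and replicates 1 and 2 were each called higher than replicate 3 for 52 of 59. Uqcrq, of respiratory complex III, stood at 216, 201 and 84.2 against 81.2, 74.9 and 70.0, and Ndufa7, of complex I, at 140, 126 and 47.2 against 46.6, 50.2 and 41.5. Mitochondrial ribosomal proteins had medians of -0.36, -0.45 and 0.03, and replicates 1 and 2 were called higher than replicate 3 for 29 and 35 of 46.

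CLK kinases and SR splicing factors ran the other way, with medians of 0.76 and 0.48 against cell media replicates 1 and 2 and -0.01 against replicate 3. With the GC trend removed the first pair was 0.46 and 0.157. Replicates 1 and 2 were called lower than replicate 3 for 24 and 17 of 28 (36.6% and 34.9% of all genes). Tra2b, a splicing regulator, stood at 13.7, 16.0 and 20.3 FPKM against 23.8, 22.2 and 21.9. Srsf7 stood at 35.0, 50.02 and 47.1 against 61.5, 58.6 and 59.8, and its difference of 0.34 from replicate 3 (95% interval 0.15 to 0.53) did not pass the adjusted threshold. Amino acid transporters had medians of 0.45, 0.31 and -0.07; with the exon length trend removed the first was 0.0807 and the second turned to -0.0167. Of these, Slc38a7, a lysosomal glutamine exporter, was lower in HBSS throughout, with 20.4, 18.4 and 17.7 against 15.6, 12.6 and 12.1. The median exon length was 1972 bases for the ribosomal proteins, 1831 for the oxidative phosphorylation subunits and 7141 for the splicing factors, against 3918 for all genes.

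Nutrient-related lists gave medians near 0, though most members of 3 of them were lower than replicate 3. These were 30 of 38 autophagy, 36 of 50 lysosomal and 33 of 42 nutrient sensing genes (6311 of all 11551 genes). Of 23 mitophagy genes, 14 were higher than replicate 3. Genes of autophagosome formation and its cargo receptors had medians of 0.07, 0.17 and -0.11 against the 3 cell media libraries, with 1 of 38 non-overlapping above (12.8% of all genes) and 5 below (9.11%). With the exon length trend removed the first pair turned to -0.2 and -0.0728. Sqstm1, the cargo receptor p62, stood at 290, 259 and 218 FPKM in cell media and at 211, 178 and 159 in HBSS. Map1lc3a, an LC3 protein of the autophagosome, stood at 22.9, 15.8 and 8.54 against 7.87, 5.54 and 4.85, and Gabarap, of the same family, at 187, 181 and 93.2 against 93.4, 93.6 and 87.9. Replicate 3 was level with HBSS for Gabarap and just above the highest HBSS library for the other 2. Among 23 mitophagy genes, 2 had non-overlapping groups above (12.8% of all genes) and 1 below (9.11%), and none had an unadjusted p under 0.05 against replicate 3, though up to 2 did without HBSS replicate 1 or 3. Pink1, the kinase that marks damaged mitochondria, was the 1 below, with 8.47, 7.55 and 6.02 against 5.85, 4.35 and 4.13, and Mfn2, a fusion protein of the outer membrane, was 1 of those above, with 12.4, 12.9 and 14.3 against 14.8, 15.9 and 17.1. The medians of mitophagy genes were 0.05, -0.01 and 0.01, and those against replicates 1 and 2 lay between -0.159 and 0.148 over the alternative settings. Lysosomal genes had medians of 0.12, 0.13 and -0.05, and nutrient sensing and mTORC1 control genes 0.13, 0.14 and -0.04. Against replicates 1 and 2 the former turned to -0.0699 and -0.0268 after scaling by median of ratios, and the latter to -0.0845 and -0.145 with the exon length trend removed. Lamtor1 and Lamtor2, of the Ragulator complex that tethers mTORC1 to lysosomes, lay near HBSS in replicate 3: Lamtor2 stood at 90.6, 94.9 and 51.7 FPKM in cell media and at 44.4, 49.4 and 45.7 in HBSS.

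Cholesterol synthesis and SREBP targets had 10 of 32 non-overlapping above (12.8% of all genes) and 1 below (9.11%), with medians of 0.32, 0.07 and 0.07; the median against replicate 2 was -0.136 with the exon length trend removed. Hmgcs1, an early enzyme of the pathway, stood at 15.1, 17.9 and 21.7 FPKM in cell media and at 22.3, 26.5 and 27.6 in HBSS. Glycolysis genes had 7 of 19 above (12.8% of all genes) and 1 below (9.11%), and a median whose sign differed between cell media libraries (0.11, -0.24 and 0.09) and turned against replicate 1 with the exon length trend removed (-0.199) and against replicate 2 with quantiles made equal (0.0888). Slc16a1, a lactate transporter, stood at 23.1, 28.4 and 34.0 against 35.8, 41.8 and 42.3, and Hk3, a hexokinase, at 77.8, 66.3 and 65.0 against 60.3, 47.9 and 47.0.

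Macrophage identity and inflammatory genes had no common direction. Of 27 measured identity genes, 5 had non-overlapping groups above (12.8% of all genes) and 4 below (9.11%). Their medians were 0.15, 0.002 and -0.002 against cell media replicates 1, 2 and 3. Over the alternative settings, those against replicates 1 and 2 lay between -0.152 and 0.539. Fcgr1, the high-affinity receptor for immunoglobulin G, stood at 18.6, 22.4 and 22.5 FPKM in cell media and at 28.0, 30.2 and 27.8 in HBSS, a difference of 0.34 from replicate 3 (95% interval 0.16 to 0.51). Trem2, a lipid-sensing receptor, stood at 69.3, 71.3 and 43.8 against 40.9, 43.3 and 40.2. Of 28 chemokine, cytokine and NF-kB feedback genes, 2 were above (12.8% of all genes) and 3 below (9.11%). Their medians were 0.18, 0.05 and 0.01, and those against replicates 1 and 2 lay between -0.114 and 0.235 over the alternative settings. Ccl7, a monocyte attractant, stood at 36.0, 44.5 and 55.7 against 70.7, 60.5 and 64.0, and Nfkbib, an NF-kB inhibitor, at 36.3, 30.6 and 21.2 against 17.9, 17.7 and 17.7. Immediate early genes named by rule overlapped between the groups: Jun stood at 31.6, 31.3 and 35.6 against 36.3, 29.0 and 31.3, and Myc at 7.02, 5.99 and 7.26 against 8.30, 5.65 and 5.70. The cell cycle inhibitor Cdkn1a stood at 43.6, 45.9 and 30.8 against 33.5, 35.5 and 34.4, so that HBSS lay below replicates 1 and 2 and above replicate 3.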

How the data were processed

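Messenger RNA of J774A.1 cells was sequenced in 12 libraries, 3 in each of 4 groups; cell media and HBSS were compared, with groups and replicate numbers from the labels. The deposited table holds FPKM values, made by the authors with HISAT2, featureCounts and the GRCm39 build per the submitters' processing notes (versions, settings and strand use not given in the sources used here). Values below 1 FPKM times exon length gave whole reads within 0.01 for 98.15% to 98.41% of values in a library, which gave the depth. Symbols, lengths and GC came from GENCODE M21, another build, used for names and properties only (28302 of 28977 IDs matched, and 11455 of the 11551 kept had a length). Differences were tested on log2(FPKM + 1), a scale that understates changes of low genes, with limma 3.58.1 in R 4.3.3: 6 libraries with 1 mean per group, and 12 libraries with 1 mean per cell media library, with a mean-variance trend, two-sided, adjusted by Benjamini-Hochberg over 11551 genes. Both fits were run on simulated data. For the single-library fit, cell media was drawn there with the mean spread of the HBSS and HOCl groups. That run cannot show how this fit behaves on the real cell media libraries. Lists are described by counts and medians without a set test. Named genes averaged 5 FPKM or more; they were the 4 with the smallest p in each direction among non-overlapping groups, up to 5 in each direction called against cell media replicates 1 and 2 alone, up to 4 members per list by p, and a panel of 12, of which 1 is not reported here. The members, lists and tests were chosen with earlier results of these data known. Alternatives covered pseudocount, filter, scaling, length and GC trends, fit, block, weights, recovered reads and each library left out.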

Additional observations from a re-analysis of the deposited data

How the results depend on the processing

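The count of 0 genes over 6 libraries was unchanged with a pseudocount of 0.1 or 0.5, genes averaging 5 FPKM only, exon length or GC trends removed, quantiles made equal, scaling by median of ratios, no mean-variance trend, a minimum log2 difference of 1, and recovered reads. It was 5 with no filter, 2 with 12 libraries in the fit, 7963 with library weights and 3700 against all 9 libraries kept in HBSS. Leaving out 1 library gave 0 to 7046, the latter without cell media replicate 3. With the replicate number as a block it was 0, with 2325 at an unadjusted p under 0.05; same-numbered libraries deviated with correlations of -0.018, 0.381 and 0.051 and not every library correlated best with its own number, so the numbers were not taken as pairs.

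Against single cell media libraries, a minimum log2 difference of 1 left 802 genes for replicate 1 and 738 for replicate 2, and 776 and 859 for replicates 1 and 2 against replicate 3. Against replicate 3 no filter gave 269 over 26576 genes, and leaving out an HBSS library gave 0 to 1 (mt-Tl1, a mitochondrial transfer RNA, without HBSS replicate 1). The count against all 3 libraries was 14 with no filter and 0 to 1 without an HBSS library. The cause was not tested. Scaling moved the median of all genes from 0.178 to 0.00815 against replicate 1 and from 0.141 to 0.0129 against replicate 2 (median of ratios), and the calls then were 3183 higher and 3369 lower, and 3356 higher and 3514 lower. With the minimum difference, 266 were higher and 472 lower against replicate 2. The 154 genes between cell media replicates 1 and 2 became 263 with a pseudocount of 0.1, 449 with no filter, 273 with genes averaging 5 FPKM only, 37 after scaling by median of ratios, 22 with quantiles made equal, 93 and 10 with the length and GC trends removed, 52 without the mean-variance trend, 11 with the minimum difference and 29 to 318 without an HBSS library.

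The log2 difference of some genes, none of them called over 6 libraries, changed sign: Slc43a2 (-0.0396) with the length trend removed; Pcna (-0.0302), Myc (0.0191) and Jun (0.105) with the GC trend removed; Jun also with quantiles made equal (0.0159). Leaving out 1 library gave -0.1158 to 0.04156 for Jun and -0.214 to 0.02863 for Myc. With cell media replicates 1 and 2 both left out it was -0.018 for Gm26109, -0.557 for Mir1957a, -0.125 for Snord73a, -0.884 for Gm22200, 0.0694 for Gm11942, -0.0479 for Tbk1 and 0.156 for Cdkn1a. Over these alternatives the median difference from replicate 3 lay between 0.308 and 0.429 for interferon-stimulated genes and between -0.268 and -0.236 for ATF4 and CHOP targets.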
